A study of Mus musculus with 3 samples.

Results

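Peaks of the transcription factors Neurog2 and Tbr2 were described in windows around 2 genes, Gadd45g and Btbd17, in the embryonic mouse cerebral cortex. A peak belonged to a window when its midpoint lay in it. The windows, in mm9 coordinates counted from 1, were chr13:51790000-52190000 for Gadd45g (400 kb) and chr11:114500000-114810000 for Btbd17 (310 kb). They held 11 of the 2640 Neurog2 peaks and 9 of the 14539 Tbr2 peaks of the series. The windows were selected on the numbers of Neurog2 and Tbr2 peaks in them and on the strength of their Neurog2 peaks, so peak counts, ratios and tags in them are a description and were not tested.

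The tissue was the cerebral cortex of wild-type C57BL/6 embryos at E14.5, fixed with 2 mM disuccinimidyl glutarate for 45 min and with 1% formaldehyde for 10 min before chromatin immunoprecipitation and sequencing (ChIP-seq). There was 1 library made with a commercial antibody against Tbr2, 1 with a non-commercial antibody against Neurog2 and 1 of input chromatin, for which no peaks were used here. How many embryos went into a library is not given in the sources used here. With 1 library per factor no value has a replicate error. The whole cortex mixes progenitors and neurons, so a peak is not assigned to a cell type. Library depth is unknown, and the Neurog2 list ended at a stricter p-value (8.65e-07) than the Tbr2 list (9.98e-06).

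Neurog2 is a basic helix-loop-helix factor that drives progenitors of the dorsal telencephalon towards a glutamatergic neuronal fate, and it binds E-box DNA as a dimer with E proteins. Tbr2, the product of Eomes, is a T-box factor of the intermediate progenitors that arise from radial glia. Gadd45g encodes a small stress- and growth-arrest-inducible protein of the Gadd45 family, which binds cell-cycle and stress-kinase regulators. Btbd17 encodes a protein with a BTB domain, a fold that mediates contacts between proteins. In the gene order of RefSeq, build GRCm38.p6, the nearest protein-coding neighbours of Gadd45g are Sema4d, a semaphorin, and Diras2, a small GTPase of the Ras family, and those of Btbd17 are Kif19a, a kinesin, and Gpr142, a G protein-coupled receptor. That table is of another build than the peaks, so no peak was assigned to a gene, promoter or exon.

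The proximal promoters of both genes are shown because E-boxes are the letters that Neurog2 is known to bind. The sequences are the 250 bases before the annotated start in RefSeq, build GRCm38.p6, 5′ to 3′ on the gene's strand, with each E-box (CANNTG) in capitals. The Gadd45g promoter is at chr13:51846425-51846674 on the plus strand and that of Btbd17 at chr11:114795893-114796142 on the minus strand. These positions are of GRCm38.p6 and cannot be set against the mm9 positions of the peaks.
Gadd45g: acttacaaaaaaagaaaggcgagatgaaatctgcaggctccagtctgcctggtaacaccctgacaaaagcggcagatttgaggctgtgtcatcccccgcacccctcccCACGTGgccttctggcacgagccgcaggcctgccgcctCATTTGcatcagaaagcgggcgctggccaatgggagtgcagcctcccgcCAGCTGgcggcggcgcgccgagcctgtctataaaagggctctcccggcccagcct
Btbd17: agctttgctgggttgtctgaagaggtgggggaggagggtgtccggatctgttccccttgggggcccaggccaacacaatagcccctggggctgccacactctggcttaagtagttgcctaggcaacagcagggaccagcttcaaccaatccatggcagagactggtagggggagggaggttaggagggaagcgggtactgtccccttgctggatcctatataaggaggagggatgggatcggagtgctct

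The Gadd45g promoter held 3 E-boxes. The first, CACGTG, began 142 bases before the start, the next, CATTTG, began 104 bases before it and the nearest, CAGCTG, 55 bases before it. The Btbd17 promoter held none. Of 32851 RefSeq promoters of this length, 66.2% held at least 1 CANNTG. The share with 3 or more, or with CACGTG or CATTTG, was not counted, so nothing is read from the number 3. The letters CAGCTG, which also count as CANNTG, were in 13% of promoters. The form CAGATG, which reads CATCTG on the opposite strand and was searched on both, was in neither promoter and in 14.4% of all. The T-box core GGTGTGA, which reads TCACACC on the opposite strand, was in neither and in 3.33% of all. These matches describe letters only, and for each gene only the promoter of 1 start was given.

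The Gadd45g window held 8 Neurog2 and 7 Tbr2 peaks, 114 Neurog2 peaks per 100 Tbr2 peaks, against 18.2 per 100 over the complete lists. All 8 Neurog2 peaks lay on a Tbr2 peak, each wholly inside it. The share wholly inside was not counted over the list, where median widths were 277 bp for Neurog2 and 703 bp for Tbr2. By an overlap of at least 1 bp, 81.3% of all Neurog2 peaks lay on a Tbr2 peak. A share of 8 in 8 is close enough to that background that nothing is read from it (95% exact interval 63.1 to 100%, counting error only). The interval takes the peaks as independent, but 6 of the 8 share 3 Tbr2 peaks, so it is too narrow. From the other side, 5 of the 7 Tbr2 peaks held a Neurog2 peak, where 14% of all Tbr2 peaks did. All 7 were above the list medians in width and tags. Wide Tbr2 peaks held a Neurog2 peak more often than the whole list, 473 of the 1139 at least 1113 bp wide. The part of width in this share was not tested. The Neurog2 peaks spanned 84.8 kb of the window and the Tbr2 peaks 202 kb.

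**Figure D1:**
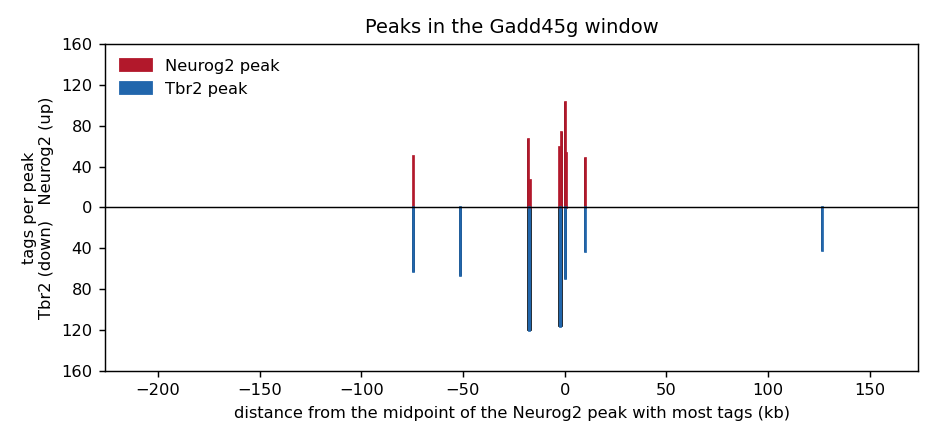
Tags of each Neurog2 peak (up) and each Tbr2 peak (down) across the 400 kb Gadd45g window, plotted by distance in kb from the midpoint of the Neurog2 peak with most tags. Of the 8 Neurog2 peaks, 7 lie close together and the other stands apart to the left, and 2 Tbr2 peaks have no Neurog2 peak.

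The leftmost Neurog2 peak stood apart from the others. It lay at chr13:51941207-51941608, was 402 bp wide and had 50 tags (95% Poisson interval 37.1 to 65.9) and a fold change of 15.1. Fold changes and tags are the authors' values per peak. Ranked by the deposited p-value it was peak 505 of the Neurog2 list. The Tbr2 peak around it, at chr13:51941063-51942119, had 62 tags and a fold change of 9.46. The next Neurog2 peak began 56.1 kb to the right.

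The remaining 7 Neurog2 peaks fell within 28.3 kb, from 51997710 to 52026026 on chromosome 13. Of all runs of 7 consecutive Neurog2 peaks on the autosomes, 1 was this short, and it was this one. The length was read from this stretch, so that count is a description. Over the autosomal list the median gap between neighbouring Neurog2 peaks was 350 kb and 5.53% of 2552 gaps were within 1 kb. In the stretch, 4 of the 6 gaps were, at 23, 724, 753 and 985 bp.

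**Figure D2:**
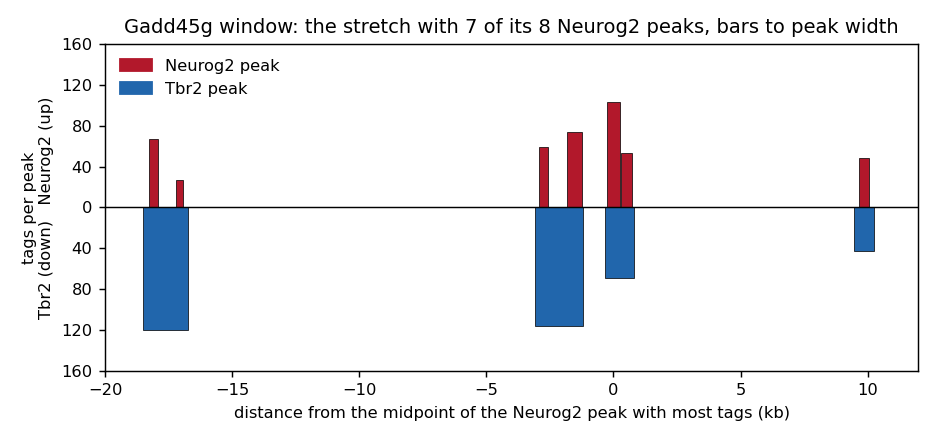
The 28.3 kb stretch of the Gadd45g window, with bars as wide as the peaks and as high as their tags, Neurog2 up and Tbr2 down, by distance in kb from the midpoint of the Neurog2 peak with most tags. In 3 places 1 wide Tbr2 peak lies under 2 Neurog2 peaks.

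Of the 8 Neurog2 peaks, 6 came as pairs on 3 Tbr2 peaks. In the complete lists 0.722% of Tbr2 peaks held 2 or more Neurog2 peaks, and 5.16% of the Tbr2 peaks that held any. No autosomal window of 400 kb clear of the Gadd45g window held 3 such Tbr2 peaks, in 5959 consecutive windows or in 237940 overlapping windows that started every 10 kb, and 4 of the consecutive windows held 2. Width moved with this pattern. Tbr2 peaks with several Neurog2 peaks had a median width of 1292 bp against 858 bp for those with 1, and the 3 in this window were 1773, 1901 and 1113 bp wide, against a list median of 703 bp. Among the 1139 Tbr2 peaks at least 1113 bp wide, 6.06% held 2 or more Neurog2 peaks, and among the 473 of these that held any Neurog2 peak 14.6% did. The part of width in the pattern was not tested further.

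The first pair lay on the Tbr2 peak at chr13:51997489-51999261, which had 120 tags and a fold change of 9.60. Its left Neurog2 peak, at chr13:51997710-51998071, had 67 tags (51.9 to 85.1) and a fold change of 9.68. The right one, at chr13:51998796-51999056, had 27 tags (17.8 to 39.3) and a fold change of 7.0, and was the weakest Neurog2 peak of the window, at rank 1919. The 2 tag intervals did not overlap, and a difference in tags between these peaks was not tested. The Neurog2 midpoints lay 484.5 bp left and 551 bp right of the Tbr2 midpoint.

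The second pair lay on the widest Tbr2 peak of the window, at chr13:52012899-52014799, with 116 tags and the lowest Tbr2 fold change of the window, 5.70. The Neurog2 peak at chr13:52013061-52013428 had 59 tags (44.9 to 76.1) and a fold change of 12.1. The one at chr13:52014182-52014734 had 74 tags (58.1 to 92.9) and a fold change of 9.52. These intervals overlapped, and a difference in tags between the members of the pair was not tested. Their midpoints lay 604.5 bp left and 609 bp right of the Tbr2 midpoint.

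The third pair held the strongest Neurog2 peak of the window. It lay on the Tbr2 peak at chr13:52015672-52016784, which had 69 tags and a fold change of 7.65 and began 872 bp after the Tbr2 peak of the second pair ended. The Neurog2 peak at chr13:52015720-52016259 was 540 bp wide, with 103 tags (84.1 to 125), a fold change of 23.3 and rank 38 in the list. Its neighbour, at chr13:52016283-52016719, began 23 bp further on and had 53 tags (39.7 to 69.3) and a fold change of 12.97. The strongest peak held 21.4% of the 481 Neurog2 tags of the window and 1.39 times the tags of the second strongest. That share counts close peaks apart. Together the 2 Neurog2 peaks of this pair held 156 tags, and those of the second pair, 985 bp to the left, held 133. With peaks within 1 kb merged, both pairs fell into 1 of 4 merged peaks.

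The last Neurog2 peak of the stretch stood alone on its Tbr2 peak. It lay at chr13:52025654-52026026, with 48 tags and a fold change of 11.8, and its midpoint was 23 bp away from that of the surrounding Tbr2 peak, chr13:52025471-52026255, which had 43 tags and a fold change of 10.4. Tbr2 peaks without a Neurog2 peak were those at chr13:51964019-51964937, with 66 tags and a fold change of 9.79, and at chr13:52142079-52142803, with 42 tags and a fold change of 13.5. Their tags lay within the 43 to 120 of the shared Tbr2 peaks or 1 tag below, so Tbr2 tags did not separate the sites with and without Neurog2 here.

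Within their own lists the Gadd45g peaks had a median rank of 517 of 2640 for Neurog2 and 4671 of 14539 for Tbr2. Of its 8 Neurog2 peaks, 7 had more tags than the list median of 30 and 7 were in the strongest 25% of the list. Tags of all 7 Tbr2 peaks were above the list median of 38, but their ranks ran from 2542 to 6681 of 14539. The median fold changes, 11.99 for Neurog2 and 9.60 for Tbr2, were near the list medians of 11.8 and 9.58.

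The Btbd17 window held 3 Neurog2 and 2 Tbr2 peaks, 150 Neurog2 peaks per 100 Tbr2 peaks, a ratio of small counts. Its 3 Neurog2 peaks fell within 27.9 kb, and 2 of them lay on a Tbr2 peak, each wholly inside it. With so few peaks the share on Tbr2 was not measurable (95% exact interval 9.43 to 99.2%).

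**Figure D3:**
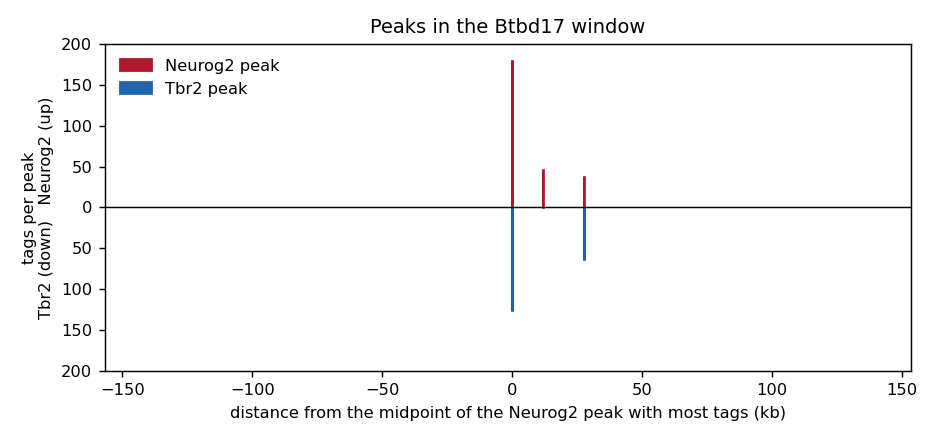
Tags of each Neurog2 peak (up) and each Tbr2 peak (down) across the 310 kb Btbd17 window, by distance in kb from the midpoint of the Neurog2 peak with most tags. The peak with 179 tags stands far above the other Neurog2 peaks, at 46 and 37 tags, and the middle one has no Tbr2 peak.

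With peaks counted as listed, 1 peak carried most of the Neurog2 signal at Btbd17, unlike at Gadd45g, where close peaks divided it. This contrast depends on counting close peaks apart. With peaks within 1 kb merged, 1 merged peak at Gadd45g took in the pairs with 133 and 156 of the 481 Neurog2 tags. Most tags at Gadd45g then also lay in 1 merged peak, while Btbd17 kept 3 Neurog2 peaks. The peak at chr11:114656396-114656979, first of the Neurog2 list by p-value, was 584 bp wide and held 179 tags (154 to 207), 68.3% of the 262 Neurog2 tags of the window and 3.89 times those of the next. It had the most tags of all 2571 autosomal Neurog2 peaks, the next having 155, and 6 peaks outside the autosomes had more. By fold change, 38.2, it was the seventh of the autosomal peaks.

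The Tbr2 peak under it was also strong within its own list. It lay at chr11:114656221-114657080, with 126 tags (105 to 150) and a fold change of 34.2, and ranked 441, in the top 3.03% of Tbr2 peaks. The midpoints of both peaks were 37 bp apart, closer than the median of 75.5 bp over all shared pairs. This Tbr2 peak had a higher rank and fold change than any Tbr2 peak of the Gadd45g window.

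The second Neurog2 peak of the Btbd17 window, at chr11:114668341-114668685, was the only 1 of the 11 without a Tbr2 peak. It had 46 tags (33.7 to 61.4) and a fold change of 9.26, at rank 814, and the nearest Tbr2 peak was 11.3 kb away. The third, at chr11:114683997-114684343, had 37 tags (26.1 to 51.0) and a fold change of 13.9. Its midpoint was 28 bp away from that of the surrounding Tbr2 peak, chr11:114683834-114684562, which had 63 tags and a fold change of 16.3. The tag intervals of these weaker Neurog2 peaks overlapped each other and not that of the strongest. The strongest peak was picked by its tags, so this describes the peaks and is not a test.

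Tags of both factors were next set side by side at the 10 shared sites. Since the libraries were not scaled to each other, a ratio of tags was read only by its place among all 2146 shared pairs, where its median was 0.459. Of the 10 pairs, 9 were above that median, and 3 had more Neurog2 than Tbr2 tags, as did 11.6% of all pairs. These pairs are not independent, since 6 of them share 3 Tbr2 peaks, and the windows were chosen for Neurog2, so nothing further is read from these counts.

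The pairs with most Neurog2 tags for their Tbr2 tags were the strongest Neurog2 peaks of each window. At Gadd45g 103 against 69 tags gave a ratio of 1.49, at or above 97.0% of pairs, and at Btbd17 179 against 126 tags gave 1.42, at or above 96.3%. The lowest was the right member of the first pair at Gadd45g, with 27 against 120 tags, a ratio of 0.225. By fold change the strongest sites took different places: at the strongest Gadd45g site the Neurog2 fold change was 3.04 times that of Tbr2, at or above 99.7% of pairs, and at the strongest Btbd17 site it was 1.11 times, at or above 65.7%.

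**Figure D4:**
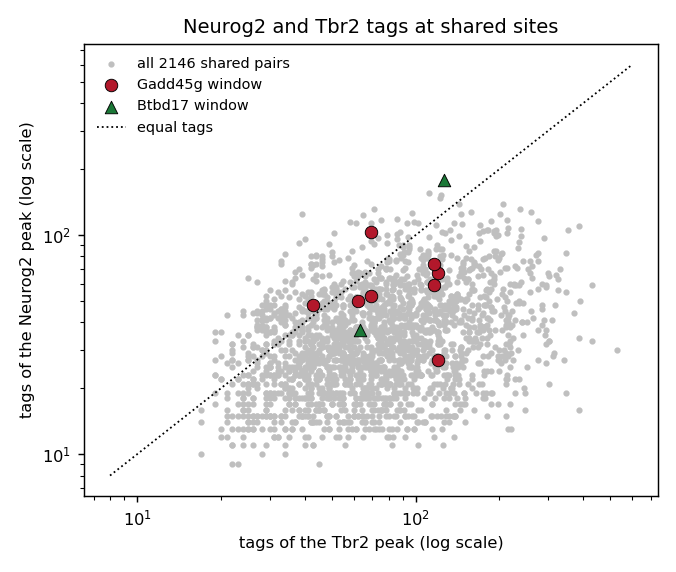
Neurog2 tags against Tbr2 tags, both on log scales, at all 2146 shared pairs (grey) and at those of the Gadd45g window (circles) and the Btbd17 window (triangles), with a dotted line at equal tags. Of the marked pairs 3 lie above the line, and the Btbd17 pair with 179 and 126 tags is the highest of the marked pairs.

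When the Neurog2 tags of each Tbr2 peak were summed, the 3 double sites at Gadd45g had 94 Neurog2 against 120 Tbr2 tags, 133 against 116, and 156 against 69. Their ratios, 0.783, 1.15 and 2.26, were at or above 77.4%, 90.7% and 99.7% of the 2033 shared Tbr2 peaks, whose median was 0.489. Only 5.16% of those held 2 or more Neurog2 peaks, so sums were mostly set against single peaks. At the last site the 2 Neurog2 peaks covered 87.8% of the Tbr2 peak's width, against 35.1% and 48.4% at the other double sites.

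The windows were placed among consecutive autosomal windows of the same length. Of 5959 windows of 400 kb, 73.1% had no Neurog2 peak and the mean was 0.429, and 0.168% (10 windows) held 8 or more. At least 7 Tbr2 peaks were held by 7.5% of them. Among the 146 windows with exactly 7 Tbr2 peaks the median number of Neurog2 peaks was 1, the highest was 8, and 1 window reached it. That window, at chr11:118472501-118872500, had 364 Neurog2 tags and no Tbr2 peak with several Neurog2 peaks. It is singled out here with its values known.

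Of the 2208 windows of 400 kb with at least 3 Tbr2 peaks, 0.181% (4 windows) had a ratio as high as at Gadd45g, and their median ratio was 9.09 Neurog2 peaks per 100 Tbr2 peaks. By Neurog2 tags, 1 of the 5959 windows, at chr8:87073123-87473122, had as many as the 481 at Gadd45g, with 548 tags in 11 peaks. Tbr2 tags as high as the 518 at Gadd45g were found in 3.29% of windows. The count of Neurog2 peaks depends on how close peaks are counted: with Neurog2 peaks on the same Tbr2 peak taken as 1 site, Gadd45g had 5 sites, 71.4 per 100 Tbr2 peaks, and 0.671% of windows had as many.

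By number of Neurog2 peaks, more windows matched Btbd17 than Gadd45g. Of 7692 windows of 310 kb, 2.43% held at least 3 Neurog2 peaks and 44.3% at least 2 Tbr2 peaks. Among the 1260 windows with exactly 2 Tbr2 peaks, 5 held 3 Neurog2 peaks and none more. A ratio as high as at Btbd17 was found in 0.14% of the 2149 windows with at least 3 Tbr2 peaks, a minimum that the Btbd17 window itself does not meet. With a minimum of 1 Tbr2 peak it was 0.507%. By tags, 24 windows (0.312%) held as many as its 262 Neurog2 tags, and 15.8% held as many as its 189 Tbr2 tags.

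**Figure D5:**
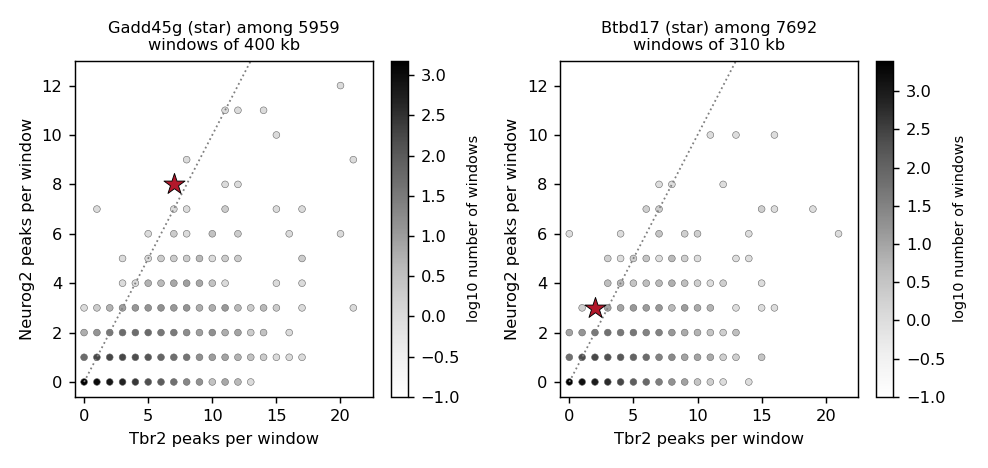
Neurog2 against Tbr2 peaks per window for the Gadd45g window (left, star) among 5959 windows of 400 kb and the Btbd17 window (right, star) among 7692 windows of 310 kb, with shading for the log10 number of windows and a dotted line at equal numbers. Both stars lie above the line, Gadd45g at 8 and 7 and Btbd17 at 3 and 2.

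The ends of the windows did not decide the counts of Neurog2 peaks. Beyond the Gadd45g window the nearest Neurog2 peaks lay 2522 kb to the left (66 tags) and 1442 kb to the right (25 tags), and the outermost ones inside lay 151 and 164 kb from the ends (50 and 48 tags). The nearest Tbr2 peaks outside lay 142 and 363 kb away (55 and 59 tags). At Btbd17 the nearest Neurog2 peaks outside lay 171 kb to the left (59 tags) and 279 kb to the right (45 tags), against 157 and 126 kb inside (179 and 37 tags). Neighbouring Tbr2 peaks lay 101 and 279 kb outside (43 and 39 tags).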

How the data were processed

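Per the submitters' processing notes, Bowtie 0.12.3, MACS 1.4 and the build mm9 were used. Settings, control and duplicate handling were not given in the sources used here. The authors deposited 1 peak list per factor with tags, fold change, p-value and FDR of each peak, unscaled between lists. The deposited score column was 750 for every peak and was not used. The score used here was the negative of 10 times log10 of the deposited p-value. BED starts were raised by 1.

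Members and lists were chosen with earlier results of these data known. Every peak in a window was described. In place of a random draw, all consecutive windows between the first and last peak of each of the 19 autosomes were counted, without those that overlap the described window, and no p-value was computed. Windows for ratios had at least 3 Tbr2 peaks. Tag intervals are 95% exact Poisson intervals, shares of Neurog2 peaks on Tbr2 peaks have Clopper-Pearson intervals, and both cover counting error only. The binomial intervals against which alternative values were set are Wilson intervals. Both genes were matched by symbol in the RefSeq promoter table. Counting was tested on simulated data (Python 3.11.15, pandas 2.3.3, scipy 1.17.1).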

Additional observations from a re-analysis of the deposited data

How the results depend on the processing

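Of 76 alternative values for 19 results, 53 stayed within 1.5 times the main count or within its 95% binomial interval, and 23 did not. Merging changed the Gadd45g Neurog2 count most: it was 5 with peaks on the same Tbr2 peak as 1 site and 4 with peaks within 1 kb merged, alternatives chosen after seeing the data. The Gadd45g ratio was then 71.4 and 66.7 per 100 in place of 114, so Neurog2 peaks no longer outnumbered Tbr2 peaks. Both values stayed within its interval. For these ratios the interval rests on few peaks and is wide, so staying within it says little. With Tbr2 cut to its 2640 strongest peaks, the Gadd45g ratio was 800 per 100, because 1 Tbr2 peak was left, and 2 of 8 Neurog2 peaks lay on it. The share of windows with as many Neurog2 peaks as Gadd45g was 0.0673% with windows shifted by 50% of their length, 0.0509% at a score of at least 100, and 0.671% and 1.12% with the 2 kinds of merging. For Btbd17 it was 3.59% among windows with at least 1 peak, 1.08% at a score of at least 100, and 1.99% and 1.91% with merging. The share with as many Tbr2 peaks was 10.03% and 65.5% (Gadd45g and Btbd17) among windows with a peak, and 1.93% and 25.1% at the stricter score. The share with as high a ratio was 0.569% and 0.507% with at least 1 Tbr2 peak per window, and 0.0457% for Btbd17 with shifted windows. In shifted windows 0% held as many Neurog2 tags as Gadd45g, 0 of 5947, and 0.195% as many as Btbd17. By tags per 100 bp the strongest Neurog2 peak had 16.6% of the Gadd45g sum and 56.1% of the Btbd17 sum. Beyond fewer peaks or windows counted, the cause was not tested. With 1 library per factor no replicate could be left out, and depth is unknown. No paired analysis was possible because each group has 1 sample.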

Other observations

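The deposited FDR did not follow the strength of the Neurog2 peaks in these windows. The strongest Gadd45g peak, with 103 tags, had an FDR of 0.0217, close to the 0.0223 of the weakest, with 27 tags, while the other 6 had values of 0.0054 to 0.0075. At Btbd17 the FDR was 0 for the peak with 179 tags, 0.0049 for that with 46 and 0.0045 for that with 37. The Tbr2 peak under the strongest Btbd17 site had an FDR of 0.0023, and the other 8 Tbr2 peaks had 0.0001 to 0.0004.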
